A study of Mus musculus with 24 samples.

Results

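Autophagy delivers cytoplasmic material to lysosomes inside double-membraned vesicles, and mitophagy is its use on mitochondria. The 38 genes described here encode this machinery, from the kinase complex that starts a vesicle to the receptors that load it. They were taken by name from the 55487 genes listed in each library, and all 38 passed the filter on low values, at least 0.5 TPM (a length-corrected share of all transcripts in the library) in 8 libraries or more, as did 14690 genes in all. The rule names genes and uses no measured value, but the list was drawn up with earlier results of these data known. The genes fall into 7 steps: 5 genes of the induction complex, 5 of the PI3 kinase complex, 5 of phagophore expansion, 10 of conjugation and processing, 5 ATG8 proteins, 4 ubiquitin-binding receptors and 4 mitophagy genes.

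Poly-adenylated RNA of the gastrocnemius, a calf muscle, was sequenced from 24 male C57BL/6J mice labelled as 12 weeks old, 8 in each of 3 groups with 1 library per mouse. Casted mice with MOTS-c had both hindlimbs held in casts for 8 days. Injected into the peritoneum 2 times daily, they received 15 mg/kg/day of MOTS-c, a peptide whose reading frame lies in the mitochondrial gene for 12S ribosomal RNA. Casted mice had the same casts and received water, and uncasted mice received water without casts. Injections ran for 8 days in all 3 groups, and the age at the start is given as 10 weeks. No transgene or mutant allele is given for any group. Levels below are scaled TPM, in which the middle of all genes was set equal between libraries, and changes are log2 fold changes of scaled TPM + 1 with the standard error (SE) from limma. A gene is said to have risen or fallen where its limma p-value, adjusted by the Benjamini-Hochberg method over all 14690 genes tested, was under 0.05.

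In skeletal muscle, autophagy clears damaged organelles and protein aggregates, and its genes are part of the response to fasting, denervation and disuse. The ULK kinase complex receives the nutrient signal and activates the PI3 kinase complex, whose lipid product recruits WIPI proteins to a growing membrane, the phagophore. ATG9A and the ATG2 proteins supply lipid to it. A pair of ubiquitin-like conjugation reactions then attach ATG8 proteins, the LC3 and GABARAP families, to the membrane. Receptors such as p62 (Sqstm1), NIX (Bnip3l) and BNIP3 bind ATG8 proteins and bring cargo along. Transcript levels do not measure how fast vesicles form or are degraded.

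The ATG8 genes include the largest change described below, and their products become active only after an ATG4 protease trims them behind a glycine near the end. The last 45 bases of each coding sequence, including the stop codon, are shown with the codon of that last glycine in capitals (GENCODE annotation of GRCm38, plus strand, each within 1 exon). They lie at chr2:155277593-155277637, chr8:121596726-121596770, chr11:69994480-69994524, chr6:129541123-129541167 and chr8:111952361-111952405, in the order listed.
Map1lc3a: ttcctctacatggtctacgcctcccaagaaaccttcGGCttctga
Map1lc3b: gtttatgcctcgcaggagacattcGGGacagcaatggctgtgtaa
Gabarap: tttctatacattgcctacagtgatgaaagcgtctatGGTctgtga
Gabarapl1: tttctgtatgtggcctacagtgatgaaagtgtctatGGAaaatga
Gabarapl2: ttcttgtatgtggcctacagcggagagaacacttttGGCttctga

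Map1lc3b has 5 codons between the glycine and the stop, and the other ATG8 genes shown have 1. Over aligned residues of the translated coding sequences, Map1lc3a and Map1lc3b were 81.8% identical, and Gabarap and Gabarapl1 were 86.3% identical. Gabarapl2 was 57.3% identical to Gabarap, and identities between the LC3 and GABARAP families ran between 30.8% and 41.0%.

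Promoters were searched because many of these genes moved together. RefSeq start sites (GRCm38.p6, 250 bases before to 50 after the start) were at hand for 31 of the 38 genes, with 35 promoters. Those of Rb1cc1, Becn1, Pik3c3, Atg12, Atg16l1, Map1lc3a and Bnip3l were not used here. The letters CACGTG, an E-box of the kind that TFEB and TFE3, transcription factors of lysosomal and autophagy genes, are known to bind, occurred in 5 of 31 genes (16.1%), against 2187 of 27025 genes in the whole table (8.09%). The genes were Atg3, Atg7, Atg14, Bnip3 and Atg5. Of these, Atg3, Atg7, Atg14 and Bnip3 were among the 16 searched genes that rose in casted mice. Stretches before the start are shown for 4 of them, with CACGTG in capitals. For Atg7 the RefSeq start used lies inside the gene as annotated by GENCODE (114643097 to 114860614), not at its first base. Atg7 lies at chr6:114670927-114671006 on the plus strand, Bnip3 at chr7:138909572-138909651 on the minus strand, Atg5 at chr10:44268288-44268338 on the plus strand and Atg3 at chr16:45158698-45158800 on the plus strand.
Atg7: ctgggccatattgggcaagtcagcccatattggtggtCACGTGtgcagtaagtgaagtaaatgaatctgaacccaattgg
Bnip3: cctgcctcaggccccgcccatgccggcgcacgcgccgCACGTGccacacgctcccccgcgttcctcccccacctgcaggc
Atg5: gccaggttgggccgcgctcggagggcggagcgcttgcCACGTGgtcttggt
Atg3: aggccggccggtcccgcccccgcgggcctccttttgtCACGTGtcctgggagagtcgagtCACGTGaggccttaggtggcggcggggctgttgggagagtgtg

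The other motifs were searched on both strands of the same windows. For all motifs, the genes compared with are the 27025 genes with a RefSeq promoter, with no filter on level. The 31 genes had all passed such a filter. GTAAACA, a FoxO motif, was in none of the 31 genes and in 4.05% of all genes. TGACNNNGC, the antioxidant response element, was in Atg13, Map1lc3b, Tax1bp1 and Ulk2 (12.9%, against 14.0% of all genes). ACGTG, the core of the hypoxia response element, was in 15 of 31 genes (48.4%) and in 21.8% of all genes, and it lies within every CACGTG. A match is a description of these letters only.

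The depth of the libraries is unknown, since TPM always add up to the same total, and nothing in the labels says whether the mice of a group shared cages or days. On the first principal component of all genes tested (50.1% of the variance), uncasted libraries lay between -40.9 and -39.7. Casted replicates 1 to 4 spread between 6.39 and 25.8 and replicates 5 to 8 between 29.5 and 36.5, with wider gaps among replicates 1 to 4 than between both sets. Casted with MOTS-c replicate 5 (-17.8) lay apart from its group (13.7 to 29.6). The labels give no batch for any of these libraries. Macrophage markers rose in casted mice for 10 of 12 genes, and their summed level was 153 to 374 scaled TPM in casted mice with MOTS-c, 123 to 291 in casted mice and 97.3 to 128 in uncasted mice. Myofibre markers summed to 38850 to 64890, 36410 to 54160 and 78420 to 90260 in the same groups, and 5 of 8 fell in casted mice while 2 rose. Endothelial markers fell for 6 of 6 genes (sums of 81.0 to 103.5, 66.4 to 96.7 and 94.5 to 133.5), smooth muscle and pericyte markers for 4 of 5 (148 to 227, 119.5 to 178 and 209 to 263.5) and fibro-adipogenic markers for 4 of 6 (356 to 699, 284 to 754 and 528 to 812). Schwann markers fell for 3 of 4 genes, 2 of 2 tested neutrophil and lymphocyte markers rose (1.53 to 19.8, 3.31 to 15.99 and 0.180 to 1.22), and no adipocyte or satellite cell marker passed. No marker list had a gene at 0 in all libraries. In whole muscle, fewer cells of a type and less RNA per cell cannot be told apart, and the part of these shifts in the results on autophagy genes was not tested.

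Casting raised more of these genes than it lowered. In casted against uncasted mice, 21 of 38 rose (55.3%), 5 fell (13.2%) and 12 did not pass, against 28.7% of all genes tested called higher and 27.7% called lower (56.5% in either direction). The median log2 change was 0.25 over the 38 genes and 0.01 over all genes tested. For 15 of the 38, every casted mouse was above every uncasted mouse, as for 11.5% of all genes tested, and for 4 every casted mouse was below, as for 10.9% of all genes tested. On the deposited TPM without scaling, where the median of all genes was 0.39 higher in casted than in uncasted mice, 33 rose and 1 fell, where 62.2% of all genes tested were called higher and 7.43% lower.

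The counts differed by step. All 5 ATG8 genes rose, with a median change of 0.71, as did 3 of 4 ubiquitin-binding receptors (median 0.64), of which none fell. Of 4 mitophagy genes 2 rose and 1 fell (0.37). Of the PI3 kinase complex (0.15) and of phagophore expansion (0.31), 3 of 5 genes each rose and none fell. Of the induction complex 2 of 5 rose and 2 fell (0.11), and of conjugation and processing 3 of 10 rose and 2 fell (-0.04). No test compared the steps.

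**Figure D1:**
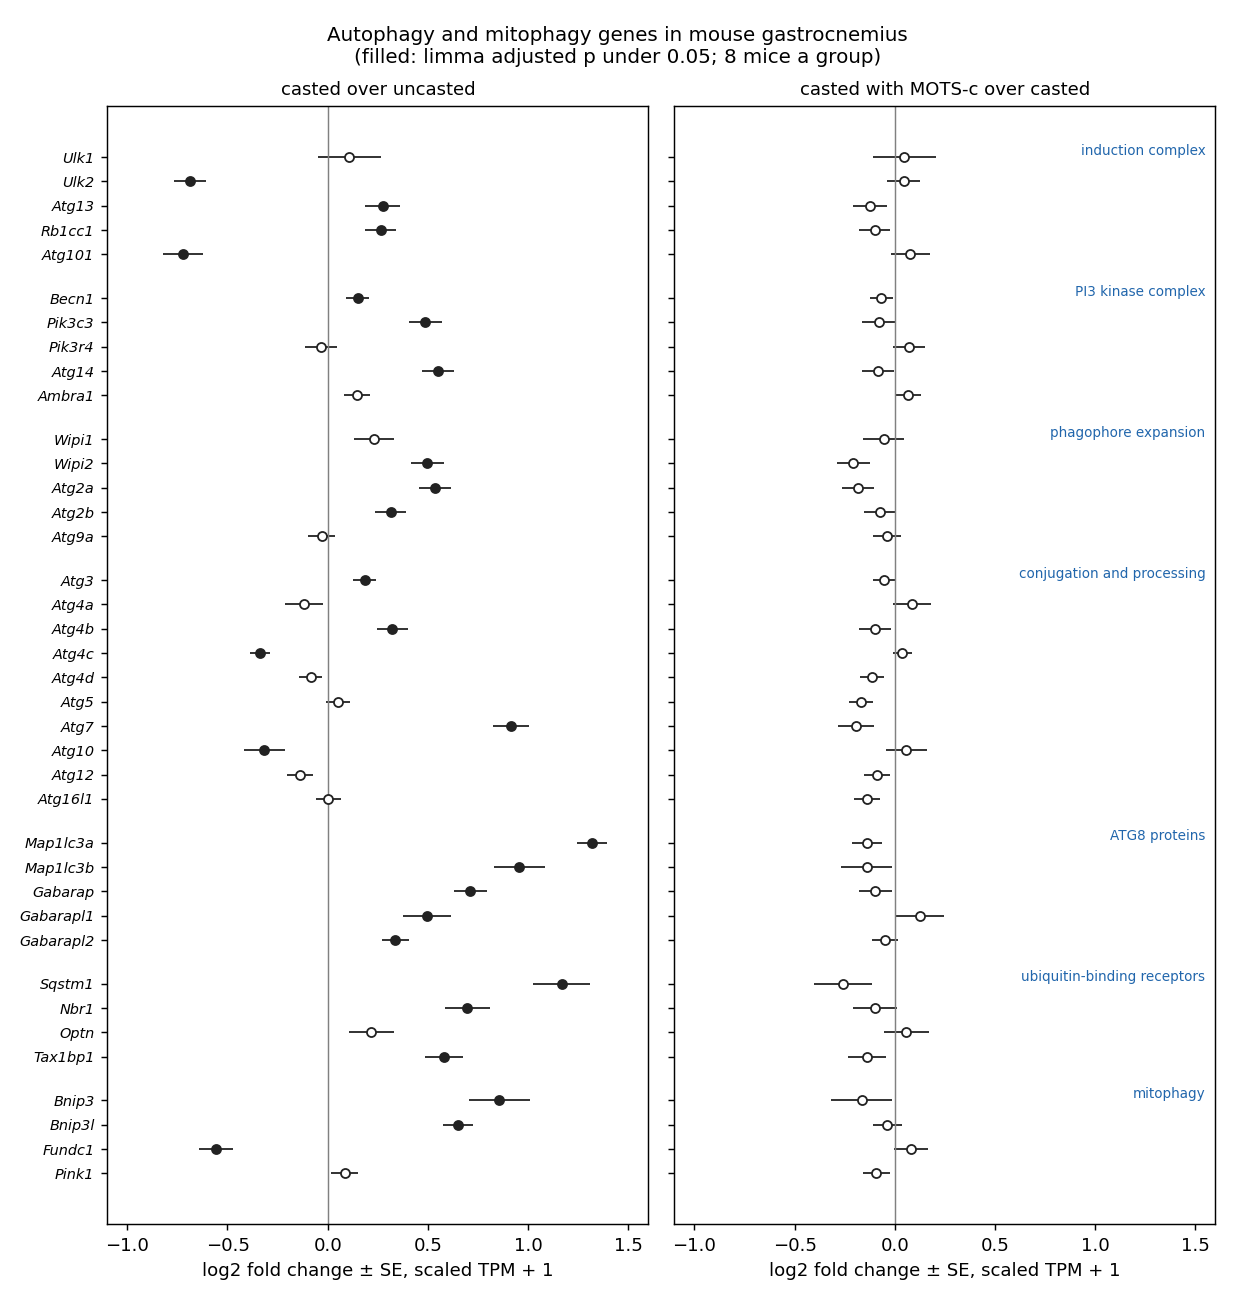
Log2 fold change ± SE of scaled TPM + 1 for each of the 38 genes by step, casted over uncasted on the left and casted with MOTS-c over casted on the right, 8 mice a group. Filled points passed the limma threshold: 26 on the left, led by Map1lc3a at 1.32, and none on the right.

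The induction complex was split. Ulk2, a kinase that starts autophagy and the paralog of Ulk1 (chromosome 11, 61775649 to 61855073), had 24.4 to 43.9 scaled TPM in casted mice with MOTS-c (median 33.8), 29.7 to 36.7 in casted mice (32.2) and 44.4 to 58.6 in uncasted mice (54.8). Every casted mouse, with or without MOTS-c, was below every uncasted mouse. Ulk2 fell by 0.69 ± 0.08 (SE, limma adjusted p = 1.484e-07) in casted against uncasted mice. Atg101, which stabilises ATG13 in the complex (chromosome 15, 101284272 to 101290945), had levels of 13.1 to 20.2 in casted mice with MOTS-c (median 15.4), 11.5 to 17.7 in casted mice (14.7) and 21.6 to 28.8 in uncasted mice (22.9). Again no casted mouse reached the lowest uncasted mouse. The fall of Atg101 was -0.72 ± 0.10 (adjusted p = 1.053e-06). On the deposited scale the fall of Atg101 was -0.23 (limma adjusted p = 0.01826), while Ulk2 no longer passed (-0.18, adjusted p = 0.06157).

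The scaffold genes of the complex went the other way. Rb1cc1, which encodes FIP200 and was the most abundant gene of the complex, had 62.8 to 85.1 scaled TPM in casted mice with MOTS-c (median 74.5), 66.7 to 91.2 in casted mice (81.2) and 57.5 to 75.8 in uncasted mice (65.3). The groups overlapped, with 5 casted mice above the highest uncasted mouse, and Rb1cc1 rose by 0.26 ± 0.08 (limma adjusted p = 0.005459). Atg13, the regulatory subunit, had 18.7 to 27.9 in casted mice with MOTS-c (median 25), 22.1 to 31.4 in casted mice (25.5) and 18.7 to 23.4 in uncasted mice (21.6). Of the casted mice 6 were above all uncasted mice, and the change was 0.27 ± 0.09 (adjusted p = 0.008323). With casted replicates 1 to 4 alone neither passed, at 0.14 for Rb1cc1 (adjusted p = 0.2178) and 0.11 for Atg13 (adjusted p = 0.3344). Ulk1 averaged 31.5 ± 8.06 in casted mice with MOTS-c, 30.6 ± 8.55 in casted mice and 27.5 ± 3.13 scaled TPM in uncasted mice (SD, n = 8 each), with a change of 0.11 (adjusted p = 0.5788). Casted mice lay on both sides of the uncasted range for Ulk1, with 3 above it and 1 below. Casted replicates 5 to 8 averaged 37.15 ± 6.1 scaled TPM of Ulk1 and replicates 1 to 4 averaged 23.97 ± 4.191 (SD). Ulk1 passed as higher in casted mice with replicates 5 to 8 alone and on the deposited scale. Ulk1 made up 47.7% ± 8.75 of the summed Ulk1 and Ulk2 level in casted mice with MOTS-c, 47.6% ± 7.47 in casted mice and 34.1% ± 2.55 in uncasted mice (SD, n = 8 each).

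In the PI3 kinase complex the catalytic subunit and its autophagy-specific partner rose. Atg14, which directs the kinase to autophagy, had 5.65 to 8.49 scaled TPM in casted mice with MOTS-c, 5.66 to 8.52 in casted mice and 4.09 to 5.13 in uncasted mice, and rose by 0.55 ± 0.08 (limma adjusted p = 3.521e-06). Pik3c3, the lipid kinase VPS34, had 10.9 to 15.6 in casted mice with MOTS-c, 10.6 to 17.0 in casted mice and 8.37 to 10.1 in uncasted mice. Both genes were without overlap between casted and uncasted mice, and Pik3c3 rose by 0.49 ± 0.08 (adjusted p = 2.385e-05). Becn1, the scaffold Beclin 1 and the most abundant gene of the complex, had 56.9 to 73.7 in casted mice with MOTS-c (median 64.2), 61.2 to 76.8 in casted mice (66.3) and 54.5 to 65.4 in uncasted mice (61.0). Its rise was small, 0.15 ± 0.06 (adjusted p = 0.02878), and was lost without casted replicate 2, casted replicate 3 or uncasted replicate 7 (adjusted p between 0.05163 and 0.07101). The rise also did not pass with upper-quartile scaling or with casted replicates 5 to 8 alone. Exons of Becn1 share 43.9% of their bases with Cntd1 on the other strand, which had 0.392, 0.342 and 0.289 scaled TPM in the 3 groups. Ambra1, which binds Beclin 1, had a change of 0.15 (adjusted p = 0.06544), and Pik3r4, the regulatory subunit VPS15, had -0.03 (adjusted p = 0.7484).

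Among genes that build the phagophore, both ATG2 lipid-transfer genes rose, Atg2a by 0.54 ± 0.08 (limma adjusted p = 3.619e-06) and Atg2b by 0.31 ± 0.08 (adjusted p = 0.001525). With casted replicates 1 to 4 alone Atg2b did not pass. Atg2a had 7.38 to 9.86 scaled TPM in casted mice with MOTS-c (median 9.20), 7.82 to 13.2 in casted mice (10.5) and 6.29 to 7.62 in uncasted mice (6.74). Wipi2, a reader of the kinase's lipid product, had 18.1 to 25.2 in casted mice with MOTS-c (median 22.3), 21.1 to 32.4 in casted mice (26.2) and 16.3 to 19.5 in uncasted mice (18.3). For Atg2a and Wipi2 no casted mouse overlapped an uncasted mouse, while 1 casted mouse with MOTS-c did for each. The rise of Wipi2 was 0.50 ± 0.08 (adjusted p = 1.626e-05). Wipi1, its paralog, was above all uncasted mice in 7 of 8 casted mice, and its change of 0.23 did not pass (adjusted p = 0.05611). Atg9a, the lipid scramblase of the phagophore and the most abundant gene of the step, had 56.1 to 67.8 in casted mice with MOTS-c (median 62.1), 54.8 to 81.8 in casted mice (60.8) and 56.0 to 71.4 in uncasted mice (65.9). The groups lay over each other, and the change of Atg9a was -0.03 (adjusted p = 0.7268, 95% interval -0.17 to 0.11).

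Of the conjugation genes, Atg7 stood out by size. Its product is the E1-like enzyme that activates both ATG12 and the ATG8 proteins (chromosome 6, 114643097 to 114860614). Atg7 had 6.17 to 9.76 scaled TPM in casted mice with MOTS-c (median 8.24), 7.91 to 10.5 in casted mice (9.38) and 3.92 to 6.11 in uncasted mice (4.34). No casted mouse of either group overlapped the uncasted mice, among which replicate 4 was far above the others. The rise was 0.92 ± 0.09 in casted against uncasted mice (limma adjusted p = 9.575e-09). Its partner enzymes changed less: Atg3, the E2-like enzyme for ATG8 proteins, rose by 0.19 (adjusted p = 0.007859), while Atg10, the E2-like enzyme for ATG12, fell. The rise of Atg3 did not pass with upper-quartile scaling or with casted replicates 1 to 4 alone. Atg10 had 6.98 to 10.2 in casted mice with MOTS-c (median 9.16), 6.73 to 10.6 in casted mice (8.42) and 8.77 to 14.0 in uncasted mice (10.8). The groups overlapped, with 4 casted mice below the lowest uncasted mouse. The fall of Atg10 was -0.32 ± 0.10 (adjusted p = 0.01063), but it was -0.22 with casted replicates 1 to 4 alone (adjusted p = 0.164) and turned to 0.15 on the deposited scale. Atg5, Atg12 and Atg16l1, which form the E3-like complex, had changes of 0.05, -0.14 and 0.00 (adjusted p of 0.4883, 0.0685 and 0.9677).

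The ATG4 proteases, which trim ATG8 proteins at the glycines shown above, diverged. Atg4b, the main protease for LC3, had 20.8 to 26.8 scaled TPM in casted mice with MOTS-c, 19.1 to 28.2 in casted mice and 17.2 to 23.5 in uncasted mice, and rose by 0.32 ± 0.08 (limma adjusted p = 0.001067). Atg4c had 3.34 to 3.66 in casted mice with MOTS-c (median 3.43), 3.10 to 3.66 in casted mice (3.37) and 4.10 to 4.92 in uncasted mice (4.53). Every casted mouse was below every uncasted mouse in this low gene, and the fall was -0.34 ± 0.05 (adjusted p = 2.068e-06), though the change was 0.07 on the deposited scale (adjusted p = 0.3408). Atg4d, the most abundant of the step, had 28.2 to 34.5 in casted mice with MOTS-c (median 31.8), 29.97 to 39.6 in casted mice (34.6) and 32.8 to 39.6 in uncasted mice (36.4). Casted and uncasted mice overlapped for Atg4d, and its change of -0.09 did not pass (adjusted p = 0.2221). Its exons share 19.3% of their bases with Kri1 on the other strand. Kri1 had 11.6 scaled TPM in casted mice with MOTS-c, 13.1 in casted mice and 6.81 in uncasted mice. Its part in the values of Atg4d was not tested. Atg4a had a change of -0.12 (adjusted p = 0.3007). Atg4b made up 28.3% ± 2.83 of the summed ATG4 level in casted mice with MOTS-c, 29.5% ± 3.27 in casted mice and 23.3% ± 1.70 in uncasted mice (SD, n = 8 each).

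**Figure D2:**
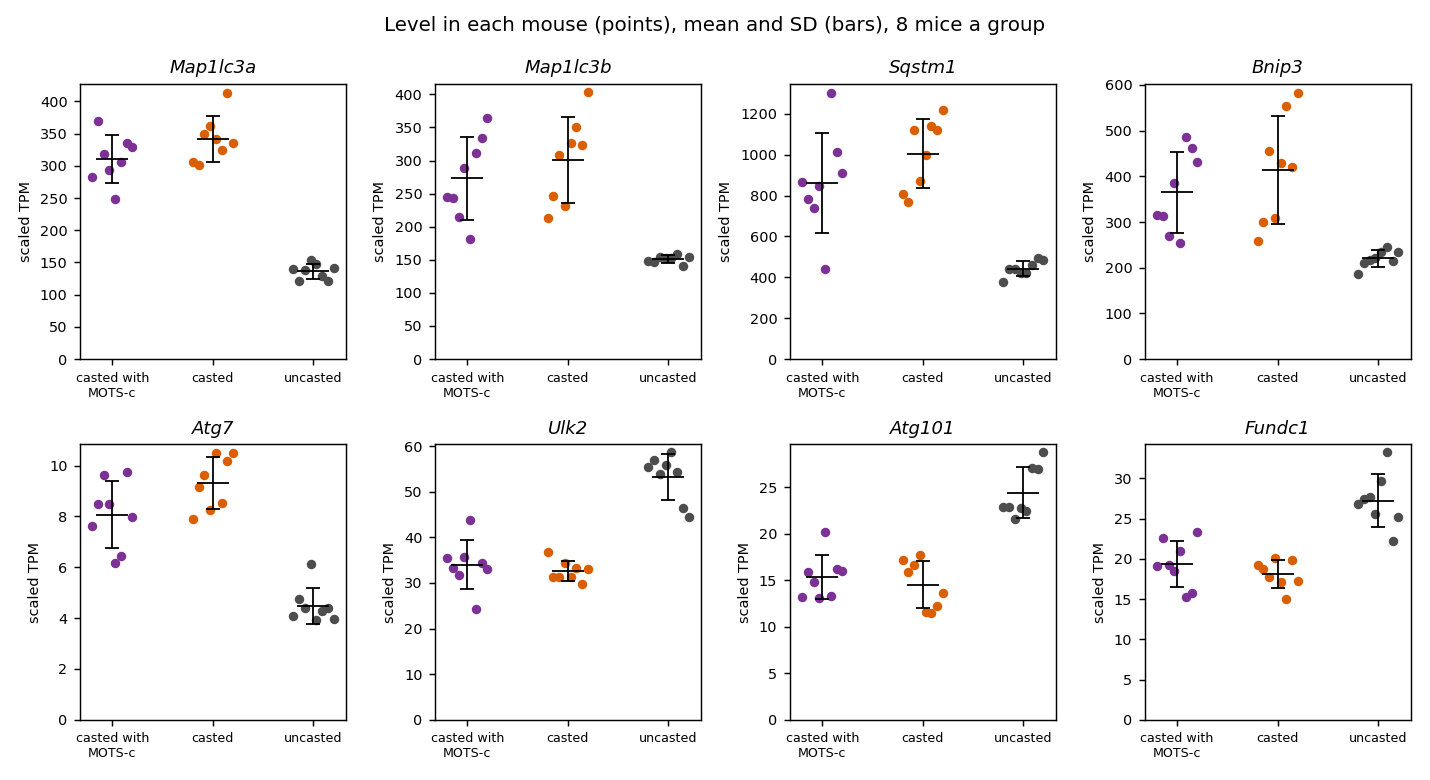
Scaled TPM of 8 genes in each mouse (points) with the group mean and SD (bars), 8 mice a group. Map1lc3a, Map1lc3b, Bnip3 and Atg7 are higher and Ulk2 and Atg101 lower in every casted mouse, with or without MOTS-c, than in any uncasted mouse. For Sqstm1 and Fundc1 that holds of the casted mice without MOTS-c.

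Every ATG8 gene rose, and each was without overlap between casted and uncasted mice. Map1lc3a, which encodes LC3A (chromosome 2, 155276297 to 155278073), had 249 to 369 scaled TPM in casted mice with MOTS-c (median 312), 301 to 413 in casted mice (339) and 120.5 to 154 in uncasted mice (139). All casted mice of both groups were far above all uncasted mice. Map1lc3a rose by 1.32 ± 0.08 (limma adjusted p = 2.808e-12), the largest change of the 38 genes. Map1lc3b, which encodes LC3B, the form most used to follow autophagosomes (chromosome 8, 121590361 to 121598760), had 182 to 365 in casted mice with MOTS-c (median 267), 213 to 403 in casted mice (316) and 141 to 159 in uncasted mice (153). Uncasted mice kept to a narrow range and casted mice spread widely, with replicates 5 to 8 (323 to 403) all above replicates 1 to 4 (213 to 308). The rise of Map1lc3b was 0.96 ± 0.13 (adjusted p = 8.314e-07), 0.71 with replicates 1 to 4 alone and 1.20 with replicates 5 to 8 alone.

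Gabarap, of the family that acts late in vesicle closure (chromosome 11, 69991143 to 69994951), had 175.5 to 274 scaled TPM in casted mice with MOTS-c (median 226), 192 to 287 in casted mice (243) and 137 to 168 in uncasted mice (146). No casted mouse of either group fell into the uncasted range. Gabarap rose by 0.71 ± 0.08 (limma adjusted p = 1.061e-07). The other two GABARAP genes rose by less, Gabarapl1 by 0.50 ± 0.12 (adjusted p = 0.001012) and Gabarapl2 by 0.34 ± 0.07 (adjusted p = 0.0001171). Gabarapl1 was not past the threshold with casted replicates 1 to 4 alone (0.37, adjusted p = 0.05492).

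The unequal rises shifted the makeup of the family. Map1lc3a was 31.1% ± 2.95 of the summed ATG8 level in casted mice with MOTS-c, 31.9% ± 2.84 in casted mice and 23.5% ± 1.57 in uncasted mice (SD, n = 8 each). Gabarapl2 was 13.1% ± 1.20, 12.6% ± 1.45 and 18.3% ± 0.985 in the same groups. For both genes the shares of casted and uncasted mice did not overlap (27.3% to 35.5% against 21.4% to 26.1% for Map1lc3a, and 10.8% to 14.7% against 16.4% to 19.4% for Gabarapl2). The summed ATG8 level was 1005 ± 137 scaled TPM in casted mice with MOTS-c, 1076 ± 116 in casted mice and 581 ± 28.4 in uncasted mice (SD, n = 8 each).

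**Figure D3:**
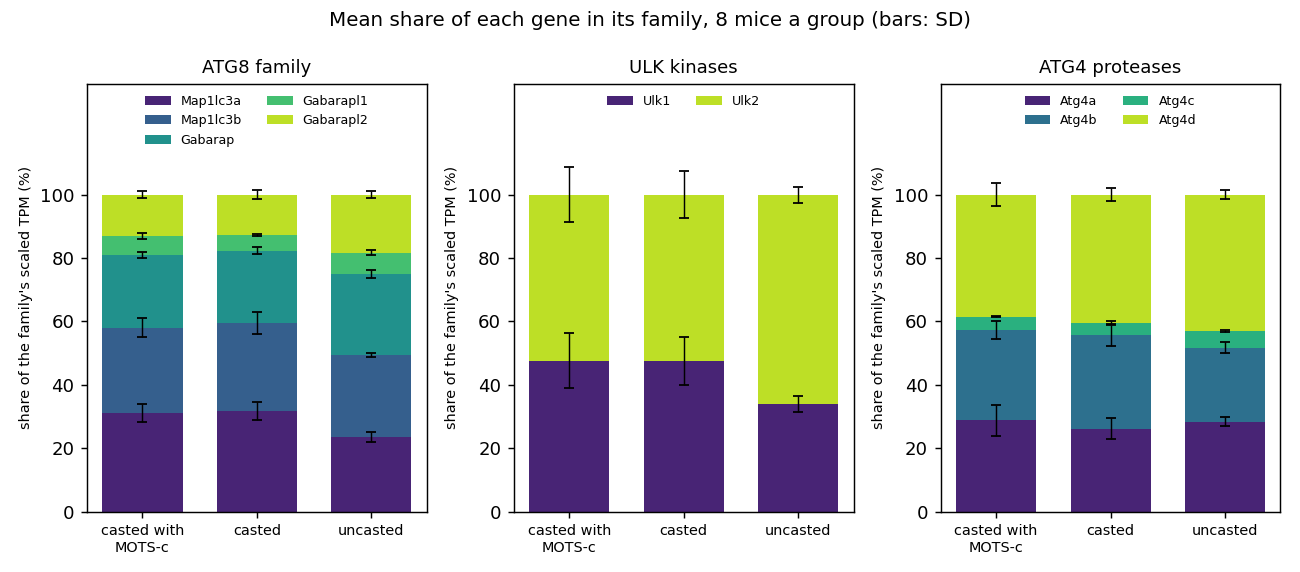
Mean share of each gene in its family's summed scaled TPM (stacked bars, percent) with the SD of that gene's share over 8 mice (black bars, drawn at the top of each segment). Map1lc3a takes 31.1% and 31.9% of the ATG8 family in both casted groups and 23.5% in uncasted mice, and Ulk1 takes 47.7%, 47.6% and 34.1% of the ULK pair.

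Some reads of these genes cannot be placed with certainty. The transcript of Gm6055 is 99.7% identical to Map1lc3b over 378 bases and was listed at 39.2 scaled TPM in casted mice with MOTS-c, 31.0 in casted mice and 19.1 in uncasted mice. Gm3724, a near-copy of Gabarapl2, had 6.18, 6.19 and 4.33 in the same groups. For Bnip3, Gm16439 is 98.9% identical and had 44.4, 51.8 and 29.0, and Bnip3l-ps, a near-copy of Bnip3l, had 15.3, 14.8 and 10.7. Rb1cc1 and Atg4a have near-copies with mean levels under 1 scaled TPM. Adding the near-copies to their genes changed no call, an alternative chosen after their levels were seen.

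Among the ubiquitin-binding receptors, Sqstm1 was the highest of all 38 genes and rose most. It encodes p62, which binds ubiquitin and LC3 and is itself degraded by autophagy (chromosome 11, 50199366 to 50210827). Sqstm1 had 440 to 1302 scaled TPM in casted mice with MOTS-c (median 859), 770 to 1217 in casted mice (1060) and 377 to 496 in uncasted mice (440). Casted mice were all above uncasted mice, and of the casted mice with MOTS-c only replicate 5 lay in the uncasted range. The rise of Sqstm1 was 1.17 ± 0.14 in casted against uncasted mice (limma adjusted p = 2.574e-07). Its exons share 17.3% of their bases with Mrnip on the other strand, which had 3.64, 3.75 and 2.53 scaled TPM in the 3 groups.

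Nbr1, a p62-like receptor, had 52.0 to 100.3 scaled TPM in casted mice with MOTS-c (median 73.8), 60.3 to 92.2 in casted mice (84.7) and 42.6 to 52.4 in uncasted mice (48.0). It rose by 0.70 ± 0.11 (limma adjusted p = 9.84e-06). Tax1bp1, a receptor that acts with NBR1, had 55.7 to 106.5 in casted mice with MOTS-c (median 77.2), 70.1 to 98.1 in casted mice (85.9) and 50.3 to 62.0 in uncasted mice (55.4). It rose by 0.58 ± 0.10 (adjusted p = 1.617e-05). For both, all casted mice and 7 of 8 casted mice with MOTS-c were above all uncasted mice. Optn, which encodes optineurin, a receptor also used in mitophagy, had a change of 0.22 that did not pass (adjusted p = 0.1028). The share of Sqstm1 in the summed level of these 4 genes was 79.2% ± 4.23 in casted mice with MOTS-c, 81.5% ± 1.22 in casted mice and 73.6% ± 1.65 in uncasted mice (SD, n = 8 each).

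The mitophagy receptors moved in opposite directions. Bnip3, an outer-membrane receptor induced by hypoxia and FoxO factors (chromosome 7, 138890836 to 138909519), had 255 to 486 scaled TPM in casted mice with MOTS-c (median 349.9), 259 to 583 in casted mice (425) and 185 to 245 in uncasted mice (218). All casted mice of both groups were above all uncasted mice, the lowest of them by little. Bnip3 rose by 0.86 ± 0.15 (limma adjusted p = 4.248e-05), 0.55 with casted replicates 1 to 4 alone and 1.16 with replicates 5 to 8 alone. Bnip3l, its paralog NIX (chromosome 14, 66985239 to 67008877), had 132 to 201 in casted mice with MOTS-c (median 168), 136 to 197 in casted mice (174) and 102 to 119 in uncasted mice (106). The groups did not overlap, and Bnip3l rose by 0.65 ± 0.07 (adjusted p = 6.282e-08).

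Fundc1, another outer-membrane receptor (X chromosome, 17556564 to 17572325), had 15.2 to 23.3 scaled TPM in casted mice with MOTS-c (median 19.2), 15.0 to 20.1 in casted mice (18.3) and 22.2 to 33.3 in uncasted mice (27.1). All casted mice were below all uncasted mice, and 6 of 8 casted mice with MOTS-c were. Fundc1 fell by 0.56 ± 0.09 (limma adjusted p = 5.407e-06), but on the deposited scale its change was -0.06 (adjusted p = 0.5651). Fundc1 made up 3.67% ± 1.02 of the summed level of Bnip3, Bnip3l and Fundc1 in casted mice with MOTS-c, 3.19% ± 0.943 in casted mice and 7.66% ± 0.768 in uncasted mice (SD, n = 8 each). Pink1, the kinase that marks depolarised mitochondria for removal, was the second most abundant of the 38 genes in uncasted mice. It had 320 to 463 in casted mice with MOTS-c (median 388), 366 to 449.6 in casted mice (422) and 353 to 438 in uncasted mice (390.0). The groups lay over each other, and the change of 0.09 did not pass (adjusted p = 0.2839, 95% interval -0.05 to 0.22). On the deposited scale Pink1 did pass as higher in casted mice, where 62.2% of all genes tested were called higher. Its deposited TPM were 410.2 to 538.15 in casted mice and 282.55 to 339.04 in uncasted mice.

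**Figure D4:**
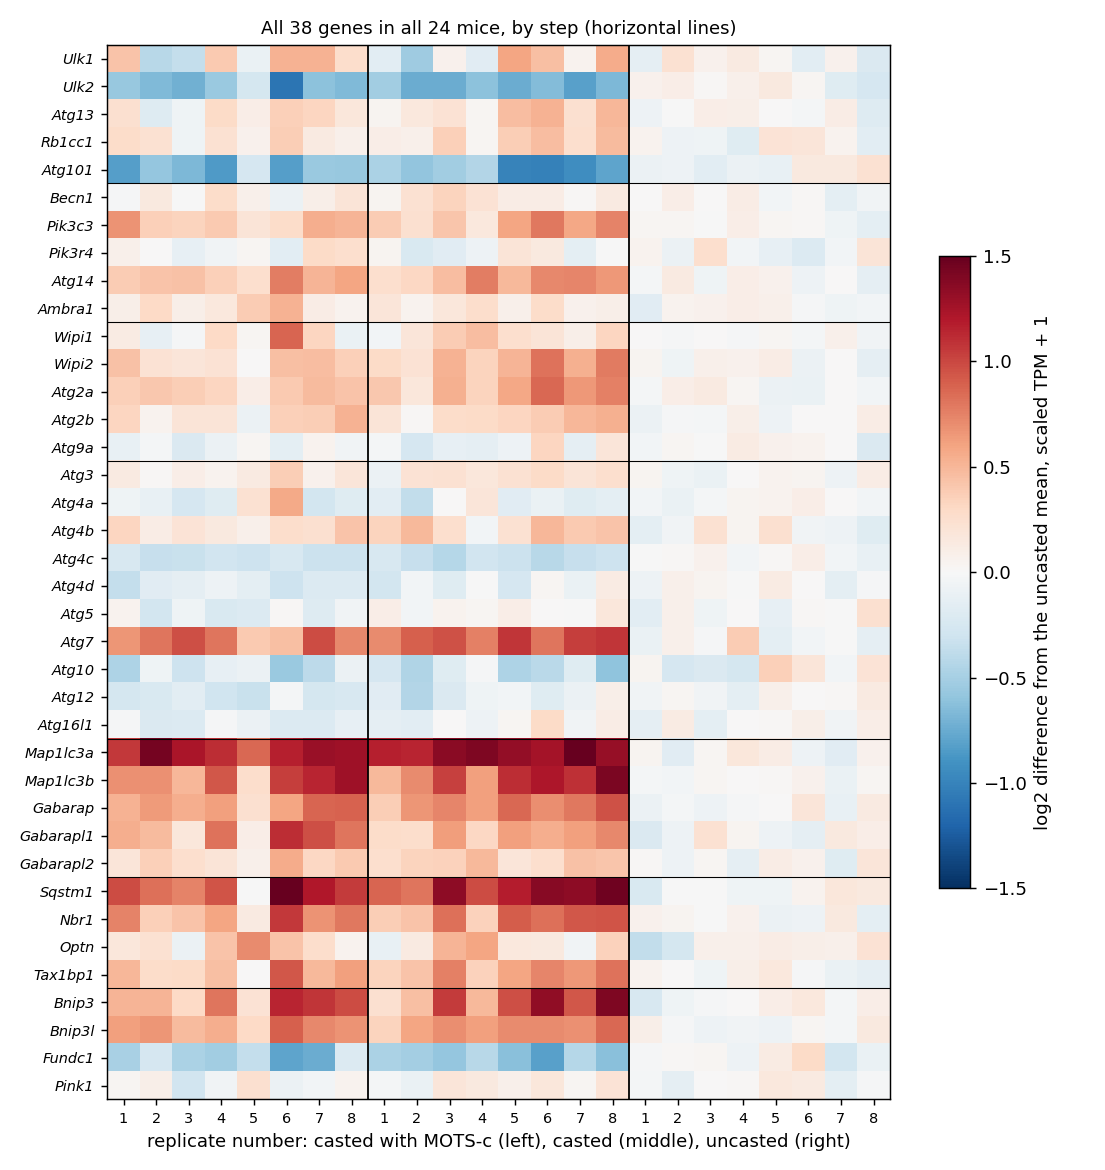
Log2 difference of each of the 38 genes from the uncasted mean (colour, scaled TPM + 1) in each of the 24 mice, casted with MOTS-c at left, casted in the middle and uncasted at right, by step. Values beyond the ends of the colour scale take the end colour. The rows of the ATG8 genes, Sqstm1, Nbr1, Bnip3 and Bnip3l are red across the casted mice, and those of Ulk2, Atg101 and Fundc1 are blue.

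Of 47 other genes of the pathway, a list of further regulators, receptors and fusion factors, 22 rose, 6 fell and 19 did not pass in casted against uncasted mice, with a median of 0.17. Of all genes tested 28.7% were called higher and 27.7% lower. On the deposited scale 45 of the 47 rose by limma, where 62.2% of all genes tested did, and the falls named below were no longer called as falls. The leading rises were those of Retreg1, the endoplasmic reticulum receptor FAM134B (1.16 ± 0.26, limma adjusted p = 0.000499), Stbd1, which binds glycogen (0.95 ± 0.10, adjusted p = 5.126e-08), Tex264, another endoplasmic reticulum receptor (0.90 ± 0.14, adjusted p = 6.719e-06), and Uvrag, a partner of Beclin 1 (0.74 ± 0.13, adjusted p = 2.273e-05). Retreg1 had 179 to 683.5 scaled TPM in casted mice with MOTS-c (median 351.5), 166 to 538 in casted mice (356) and 125 to 200.5 in uncasted mice (145). Of the casted mice 7 of 8 were above all uncasted mice for Retreg1, and both casted groups spread widely. Stbd1 had 42.1 to 75.3 in casted mice with MOTS-c, 48.1 to 76.8 in casted mice and 26.1 to 32.2 in uncasted mice, without overlap.

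Genes of that list with roles in vesicle tethering and fusion went both ways and were not tested as a group. Rab7, a GTPase of late endosomes, had 141 to 215 scaled TPM in casted mice with MOTS-c, 139.8 to 186 in casted mice and 207 to 276 in uncasted mice, and fell by 0.59 ± 0.09 (limma adjusted p = 2.758e-06). Casted and uncasted mice did not overlap for Rab7. The membrane fusion genes Vamp8 (-0.39, adjusted p = 0.00205) and Ykt6 (-0.20, adjusted p = 0.00386) and the FUNDC1 paralog Fundc2 (-0.18, adjusted p = 0.00699) fell with overlap. The tethering genes Vps16 (0.74, adjusted p = 4.472e-07) and Vps33a (0.66, adjusted p = 1.996e-07) and the fusion genes Snap29 (0.29, adjusted p = 0.0006115) and Stx17 (0.22, adjusted p = 0.02163) rose. None of the E-box factors passed. Tfeb had a change of -0.10 (adjusted p = 0.4279), Tfe3 by 0.22 (adjusted p = 0.109) and Mitf by -0.08 (adjusted p = 0.49). The tethering and fusion genes that rose and the E-box factors were named after their values were seen.

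MOTS-c against casting alone asks whether the peptide moved these genes within casted muscle. None of the 38 genes passed limma's threshold in either direction, and 0.0204% of all genes tested did (0.0136% higher and 0.00681% lower, 2 genes and 1 gene). At an unadjusted limma p under 0.05 there were 5 of the 38 genes and 1986 of the 14690 genes tested. Among the 38 genes 27 changes were negative and 11 positive, with a median of -0.08. Over all genes tested 7553 changes were negative and 7134 positive, with a median of -0.01. For none of the 38 were the groups without overlap; of all genes tested, 0.0408% were above and 0.034% below without overlap. Of the macrophage markers, 0 of 12 passed and 8 had an unadjusted limma p under 0.05; their part in these differences was not tested.

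The smallest p-values were those of Atg5 (unadjusted p = 0.01059), Wipi2 (0.01931), Atg2a (0.03167) and Atg16l1 (0.03857) in limma, followed by Atg7 (0.04143). Atg5, of the E3-like complex, had 7.17 to 9.23 scaled TPM in casted mice with MOTS-c (median 8.06), 8.63 to 10.2 in casted mice (9.18) and 7.90 to 10.6 in uncasted mice (8.90). Of the casted mice with MOTS-c 6 were below the lowest casted mouse, and the change was -0.17 (95% interval -0.30 to -0.04, limma adjusted p = 0.2593). Atg16l1, its partner, had 10.9 to 12.8 in casted mice with MOTS-c (median 11.4), 11.5 to 15.98 in casted mice (12.7) and 11.5 to 14.1 in uncasted mice (13.0). Of these, 4 casted mice with MOTS-c were below the lowest casted mouse, and the change was -0.14 (adjusted p = 0.3489). Wipi2 and Atg2a, whose levels are given above, had -0.21 (95% interval -0.38 to -0.04, adjusted p = 0.2977) and -0.18 (adjusted p = 0.3343).

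For the genes that rose most with casting, the intervals of the MOTS-c difference were wide or narrow by gene. These genes were picked by their rise in casted mice. The same casted mice are the reference here, so the differences are not independent of that choice. Sqstm1 had -0.26 (95% interval -0.55 to 0.04), Map1lc3a -0.14 (-0.30 to 0.02), Map1lc3b -0.14 (-0.40 to 0.12), Bnip3 -0.17 (-0.48 to 0.15) and Bnip3l -0.04 (-0.19 to 0.11). Atg7 had -0.19 (-0.38 to -0.01, limma adjusted p = 0.3561), Gabarap -0.10 (-0.27 to 0.07) and Nbr1 -0.10 (-0.33 to 0.13). Gabarapl1 was the ATG8 gene with a positive difference, 0.13 (-0.12 to 0.37, limma adjusted p = 0.6596), with 4 casted mice with MOTS-c above all casted mice and 2 below. A p-value that misses the threshold does not show that the groups are alike.

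The median difference of the 38 genes was 0.01 against casted replicates 1 to 4 alone and -0.17 against casted replicates 5 to 8 alone. These sets of casted mice were formed after their libraries had been seen to differ on the axis that separates casted from uncasted mice, so these values are a description and no test. With replicates 5 to 8 alone 4 of the 38 genes were called by limma, all lower in casted mice with MOTS-c, where 4.62% of all genes tested were called higher and 5.71% lower. With replicates 1 to 4 alone 0 of the 38 were called. Without casted with MOTS-c replicate 5, 0 genes passed, the median was -0.05 and Sqstm1 had -0.13.

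Against uncasted mice, which also served the casting comparison, casted mice with MOTS-c had 19 of 38 genes higher, 7 lower and 12 not passing by limma, where 26% of all genes tested were higher and 24.7% lower (50.7% in either direction). The median was 0.19 over the 38 genes. All 5 ATG8 genes rose, by 1.18 (Map1lc3a), 0.82 (Map1lc3b), 0.62 (Gabarap), 0.62 (Gabarapl1) and 0.29 (Gabarapl2), beside 1.32, 0.96, 0.71, 0.50 and 0.34 in casted mice. All 4 ubiquitin-binding receptors rose, Sqstm1 by 0.91 and Optn by 0.27 (adjusted p = 0.04452, lost in 9 of 24 fits with 1 library left out). Of conjugation and processing 2 rose and 4 fell, the falls being Atg4c (-0.30), Atg4d (-0.20), Atg10 (-0.26) and Atg12 (-0.23). Ulk2 and Atg101 fell by 0.64 each and Fundc1 by 0.48. Without overlap, 8 genes were above and 3 below, against 7.26% and 8.15% of all genes tested. On the deposited scale 32 rose and 2 fell, against 60% and 6.94% of all genes tested, and Ulk2 and Atg101 were still lower (-0.21 and -0.23), Fundc1 had -0.06 and Atg4c, Atg4d, Atg10 and Atg12 had 0.05, 0.23, 0.14 and 0.17.

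For most of the 38 genes, the casted mice varied more among themselves than the uncasted mice. Casted libraries also spread more widely on the first principal component of all genes tested, as given above. The spreads and extremes below are for these genes only, with no value over all genes beside them. The coefficient of variation was larger in casted mice with MOTS-c than in uncasted mice for 31 of 38 genes, and larger in casted than in uncasted mice for 28, with medians of 13.3%, 12.0% and 7.59% in the 3 groups. Of the 21 genes that rose with casting, casted with MOTS-c replicate 5 had the lowest level of its group in 17 and replicate 6 the highest in 11. Casted replicate 8 was the highest of its group in 11, and casted replicates 1, 2 and 4 the lowest in 8, 6 and 5. Casted replicates 5 to 8 were all above replicates 1 to 4 for Atg13, Pik3c3, Atg2a, Atg2b and Map1lc3b, and all below them for Atg101. That is 5 and 1 of 38 genes, where 7.13% of all genes tested were above and 5.55% below.

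The mean log2 difference from the uncasted mean over the 5 ATG8 genes was 0.31 to 0.92 in casted mice with MOTS-c (median 0.73), 0.51 to 0.96 in casted mice (0.80) and -0.08 to 0.10 in uncasted mice (0.02). Over the 10 conjugation genes it was -0.06 to 0.03 (median -0.02), -0.02 to 0.12 (0.06) and -0.06 to 0.07 (0.00) in the same groups. Casted and uncasted mice thus did not overlap for the ATG8 genes and overlapped for the conjugation genes. The PI3 kinase complex was also without overlap, at 0.119 to 0.41 in casted mice and at most 0.072 in uncasted mice. So was phagophore expansion, narrowly, at 0.067 to 0.513 in casted mice and at most 0.057 in uncasted mice. The induction complex and the mitophagy genes overlapped. The receptors had 0.209 to 0.996 in casted mice with MOTS-c and 0.37 to 0.89 in casted mice, against -0.12 to 0.07 in uncasted mice.

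**Figure D5:**
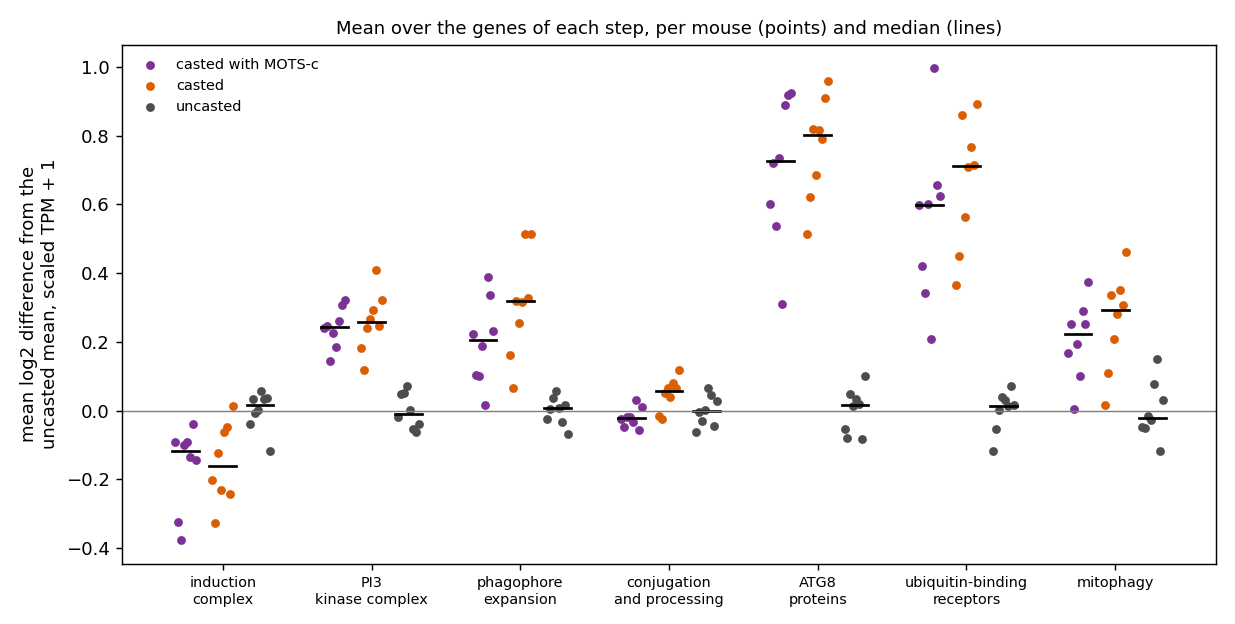
Mean log2 difference from the uncasted mean (scaled TPM + 1) over the genes of each step in each mouse (points), with the group median (lines), 8 mice a group. ATG8 proteins and ubiquitin-binding receptors sit above all uncasted mice in every casted mouse, with medians of 0.80 and 0.71 in casted mice, while conjugation and processing stays near 0. The PI3 kinase complex also sits above all uncasted mice in both casted groups, by less. Phagophore expansion does so only in casted mice without MOTS-c.

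By level, the genes spanned a wide range. In uncasted mice Sqstm1 (443 ± 37.9 scaled TPM, SD, n = 8) was above 98.7% of all genes tested, followed by Pink1 (391.5 ± 30.2) and Bnip3 (220.3 ± 18.5). The next were Map1lc3b (151 ± 5.40), Gabarap (148 ± 11.1) and Map1lc3a (136 ± 12.0), whose ranges overlapped one another. At the low end Atg14 (4.59 ± 0.362), Atg4c (4.51 ± 0.260) and Atg7 (4.49 ± 0.711) could not be ordered beyond their spread. In casted mice Map1lc3a averaged 342 ± 35.4 and Map1lc3b 300.3 ± 65.0, so that Map1lc3a then stood above Map1lc3b, again within the spread of Map1lc3b.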

How the data were processed

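RNA with poly-A tails was sequenced from 24 gastrocnemius muscles, 1 library per mouse. The authors deposited TPM for 55487 Ensembl genes in every library. Per the submitters' processing notes the tools were STAR and RSEM, with FastQC and DESeq2, and the build was GRCm38.p6. Tool versions, the annotation release and the strand setting of counting are not given in the sources used here. Library depth is unknown, and so is how reads of near-copies were divided.

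Between libraries, TPM were scaled by an unweighted mean of trimmed log ratios (trim of 30% for ratios, 5% for mean levels). The 14690 genes that reached 0.5 TPM in 8 or more libraries were fitted with limma 3.58.1 (R 4.3.3, mean-variance trend) on log2(scaled TPM + 1), which understates the change of low genes. The 3 group means were fitted together over 24 libraries, with no covariate. Tests were two-sided and Benjamini-Hochberg adjusted per comparison, with 0.05 as threshold. Symbols and 1-based coordinates are from GENCODE on GRCm38 (55141 identifiers matched), and near-copies were found with blastn 2.17.0 (90% identity or more over at least 300 bases and 80% of the copy).

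The 38 genes, the wider list and the marker lists were chosen with earlier results of these data known. Per-mouse ranges are given for the 12 largest changes that passed in casting, for genes that passed against the direction of their step, for the 4 smallest p-values of MOTS-c against casting and for the most abundant gene of each step. The labels do not say that mice were housed or handled separately, so p-values measure the spread between these mice. Alternatives were other scalings, a pseudocount of 0.1, no filter, 2 groups in the fit, a replicate block, array weights, the splits of the casted mice, near-copies added and each library left out in turn.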

Additional observations from a re-analysis of the deposited data

Results flagged for a closer look

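In 114 sets of 8 levels (38 genes in 3 groups), 6 single values lay far from the others of their group by Dixon's gap test, and chance flags about 1 in 20 sets. Of the casted mice with MOTS-c, replicate 5 had 20.23 scaled TPM of Atg101, above 13.1 to 16.2 in the others, and 7.376 of Atg2a, below 8.77 to 9.86. Replicate 6 of that group had 77.81 of Wipi1, above 38.6 to 52.8, and 25.79 of Atg3, above 20.03 to 22.6. Casted replicate 1 had 18.51 of Atg3, below 22.3 to 24.2. Uncasted replicate 4 had 6.113 of Atg7, above 3.92 to 4.75.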

How the results depend on the processing

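Casted against uncasted, 21 genes were higher and 5 lower. The counts were 19 and 7 with upper-quartile scaling, 23 and 5 with only the 2 groups in the fit, 24 and 5 with array weights, 16 and 5 with casted replicates 1 to 4 alone, 21 and 5 with replicates 5 to 8 alone, and 20 to 23 and 5 to 6 with each library left out. On the deposited TPM they were 33 and 1, and for casted mice with MOTS-c against uncasted mice 32 and 2 in place of 19 and 7 (18 to 20 and 6 to 7 with each library left out). There, Pik3r4 (0.43), Atg9a (0.48), Atg4a (0.38), Atg4c (0.0732), Atg4d (0.42), Atg10 (0.15) and Atg12 (0.33) turned positive in casted against uncasted mice. In casted mice with MOTS-c against uncasted mice the same held of Atg9a (0.36), Atg4a (0.39), Atg4c (0.0502), Atg4d (0.23), Atg5 (0.27), Atg10 (0.14), Atg12 (0.17), Atg16l1 (0.27) and Pink1 (0.43). The scaling alone differs in these. The wider list had 45 of 47 higher by limma on that scale, and 12 higher and 3 lower with casted replicates 1 to 4 alone, in place of 22 and 6. Over all genes tested, casted against uncasted, 9132 were higher and 1091 lower on the deposited TPM, in place of 4223 and 4074. The counts over all genes were 3544 and 4770 with upper-quartile scaling, and 4259 and 4084 with only the 2 groups in the fit.

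Casted with MOTS-c against casted, 0 genes passed under every alternative except with casted replicates 5 to 8 alone, where 4 were lower beside 678 higher and 839 lower of all genes; those sets were formed after the casted libraries were seen to differ. With each library left out, 0 passed in either direction, and over all genes 0 to 41 were higher and 0 to 22 lower. The cause of the difference between the casted replicates was not tested.

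Single libraries decided some calls. In casted against uncasted mice, Ambra1 passed without casted with MOTS-c replicate 6 (adjusted p = 0.03637), Wipi1 without that library or casted replicate 1 (0.007183 and 0.02832), Optn without casted replicate 1 (0.04794) and Atg12 without casted replicate 8 or uncasted replicate 4 (0.02408 and 0.04203), all by limma. In casted mice with MOTS-c against uncasted mice, Optn did not pass without any 1 of uncasted replicates 1 to 4 or of casted with MOTS-c replicates 2 and 4 to 7 (adjusted p up to 0.1036), nor Atg10 without uncasted replicates 1, 5, 6 or 8 or casted with MOTS-c replicates 1, 3, 6 or 7 (up to 0.08863). Atg3 passed there without uncasted replicate 8, casted replicate 1 or casted with MOTS-c replicate 2, Atg13 without the last of these, and Rb1cc1 without uncasted replicate 5 or casted with MOTS-c replicate 3 (adjusted p of 0.0301 or more).

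Same-numbered libraries of different groups correlated between -0.245 and 0.371. The labels do not say that the numbers pair mice, and these correlations cannot exclude shared cages or days. With the replicate number as a block, the counts were 21 and 5, 0 and 0, and 19 and 6, where Atg10 was lost in casted mice with MOTS-c against uncasted mice. Depth is unknown, so whether it limits low genes such as Atg4c, Atg7 and Atg14 cannot be said.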
